A study of Mus musculus with 8 samples.

Results

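The 10 genes followed here encode enzymes and subunits of DNA methylation and of the Polycomb complexes: Dnmt1, Dnmt3a, Dnmt3b, Tet1, Tet2, Tet3, Ezh1, Ezh2, Asxl1 and Bmi1. They were chosen by symbol, with no threshold on their values but with earlier results of these data known. All 10 were found among the 53700 genes of the count table, and all 10 were among the 12132 genes that passed the filter on low counts. The study sequenced 8 pooled bone marrow libraries, with 2 cell types crossed with 4 donor genotypes and 1 library in each cell of that grid. The HSC libraries held haematopoietic stem cells sorted as CD48- CD150+ within the LSK gate, and the MPP libraries held multipotent progenitors sorted as CD48+ CD150- within the same gate. The label WT stands for Nfat5 +/+ Vav-Cre donors, N5 for Nfat5 fl/fl Vav-Cre donors, IFNAR for donors deficient in IFNAR1, and DKO for donors lacking both. Vav-Cre is a transgene that drives recombination in blood-forming cells, Nfat5 encodes a transcription factor of the NFAT family, and the Ifnar1 product is a subunit of the receptor for type I interferons. Donor marrow of the CD45.2 background had been given to irradiated wild-type CD45.1 recipients, and CD45.2+ cells were sorted 13 weeks later, so every library came from transplanted cells in a wild-type host. Each library pooled the same number of cells from each of 5 mice. No group was replicated, and the labels do not say whether the HSC and MPP pools of a genotype came from the same mice, so p-values measure only the spread between these libraries.

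DNA methyltransferases place a methyl group on cytosine in CpG dinucleotides: Dnmt1 copies the mark to the new strand after replication, and Dnmt3a and Dnmt3b set it at new sites. Tet enzymes oxidise the methyl group as the first step of its removal. Polycomb repressive complex 2, with Ezh1 or Ezh2 as its catalytic subunit, methylates histone H3 at the lysine named H3K27. Polycomb repressive complex 1, of which Bmi1 is a subunit, ubiquitinates histone H2A and compacts chromatin, and the deubiquitinase PR-DUB, of which Asxl1 is a subunit, removes that ubiquitin. In mouse and human blood, Dnmt3a, Tet2 and Asxl1 are known as genes whose loss or mutation lets stem cell clones expand, and Bmi1 as a gene required for stem cell self-renewal in the mouse.

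The promoter windows of Ezh2 and Ezh1 are shown because these paralogs encode alternative catalytic subunits of the same complex and their fitted differences between HSC and MPP libraries had opposite signs. The sequences are RefSeq windows on GRCm38.p6 that run from 250 bases before to 50 bases after the transcript start, read 5′ to 3′ on the gene's strand. That of Ezh2 lies at chr6:47594981-47595280 on the minus strand and that of Ezh1 at chr11:101226414-101226713 on the minus strand. Capitals mark a match to an E2F-type motif, searched on both strands as TTTCCCGC, TTTGGCGC, TTTGCCGC or TTTCGCGC.
Ezh2: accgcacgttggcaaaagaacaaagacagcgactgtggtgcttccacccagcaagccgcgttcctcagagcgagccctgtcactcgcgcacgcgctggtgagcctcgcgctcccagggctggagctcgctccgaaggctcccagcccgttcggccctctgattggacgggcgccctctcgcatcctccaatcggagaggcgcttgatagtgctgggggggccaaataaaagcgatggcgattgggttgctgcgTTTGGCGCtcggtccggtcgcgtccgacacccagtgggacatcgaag
Ezh1: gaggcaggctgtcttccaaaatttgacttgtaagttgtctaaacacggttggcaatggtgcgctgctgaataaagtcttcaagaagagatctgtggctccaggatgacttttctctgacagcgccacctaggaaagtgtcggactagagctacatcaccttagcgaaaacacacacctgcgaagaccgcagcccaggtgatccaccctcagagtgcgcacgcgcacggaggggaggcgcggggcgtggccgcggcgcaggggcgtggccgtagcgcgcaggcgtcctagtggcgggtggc
The Ezh2 window held 1 match, TTTGGCGC, which began 3 bases past the transcript start, and it held 31 CpG dinucleotides. The Ezh1 window held 0 matches and 23 CpG dinucleotides. Of all 32851 windows in the RefSeq table, 2.26% held a match, and the median window held 7 CpG dinucleotides. All 10 genes had a window in that table, 14 windows in all, and the 1 other window with the motif was one of Dnmt1, with 2 matches. A match describes only the letters of the window. Whether it is bound, or bears on any level given here, was not tested.

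The libraries held 28871693 to 47205950 counts each, and 13510 to 14781 genes had a count. Markers followed the sort: all 11 HSC markers were higher in HSC libraries and all 8 MPP markers were higher in MPP libraries by the fitted difference. The targeted genes went against the genotype labels. Levels are given as CPM, a gene's counts scaled to the size of its library with TMM factors, and each set of 4 values follows the label order WT, N5, IFNAR, DKO. Nfat5 stood at 33.2, 22.7, 3.12 and 35.5 CPM in HSC and at 5.59, 7.69, 0.193 and 11.5 CPM in MPP. The lowest Nfat5 level of each cell type was thus in the library labelled IFNAR. Ifnar1 stood at 122, 126, 113 and 35.1 CPM in HSC and at 37.2, 87.9, 43.8 and 125 CPM in MPP, and the MPP library labelled DKO had the highest level of its cell type. A count over a whole gene includes reads outside any deleted exon, so it checks an allele only in part. Every genotype below is therefore named as the library's label. Markers of other cells were summed over each list. In HSC and MPP libraries, 8 neutrophil markers summed to 475 to 618 CPM and 128 to 700 CPM, 8 erythroid markers to 200 to 587 CPM and 166 to 433 CPM, and 7 megakaryocyte markers to 245 to 470 CPM and 45.6 to 164 CPM. Monocyte and macrophage markers summed to 10.2 to 74.3 CPM and 122 to 183 CPM, B cell markers to 30.7 to 103 CPM and 55.8 to 87.1 CPM, and markers of stroma and endothelium, of which 3 of 7 were at 0 in every library, to 15.4 to 99.5 CPM and 176 to 278 CPM. Csf1r is on the monocyte and macrophage list and also on the list of MPP markers. T and NK cell markers reached at most 26.1 CPM, with 4 of 8 at 0 in every library. The part of such cells in the results below was not tested.

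Between HSC and MPP, none of the 10 regulators passed the test. The smallest p-values belonged to lower Ezh2, the Polycomb methyltransferase linked to dividing cells, and lower Dnmt1 in HSC libraries, and Ezh1, the paralog of Ezh2 known from resting cells, had a difference of the other sign. The edgeR quasi-likelihood fit with genotype label as a block called 0 of the 10 after Benjamini-Hochberg adjustment at 0.05, and over all genes it called 2, or 0.0165%, which were the MPP markers Dntt and Cd34. At an unadjusted p under 0.05, 0 of the 10 passed against 10.1% of all tested genes. The levels of the HSC and MPP libraries overlapped for all 10, so 0 of 10 separated the cell types completely, against 10.4% of all tested genes. The median fitted difference of the 10, HSC minus MPP, was 0.18 on the log2 scale, against -0.10 over all tested genes. In bulk RNA, fewer cells that express a gene and less of its RNA per cell cannot be told apart.

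**Figure D1:**
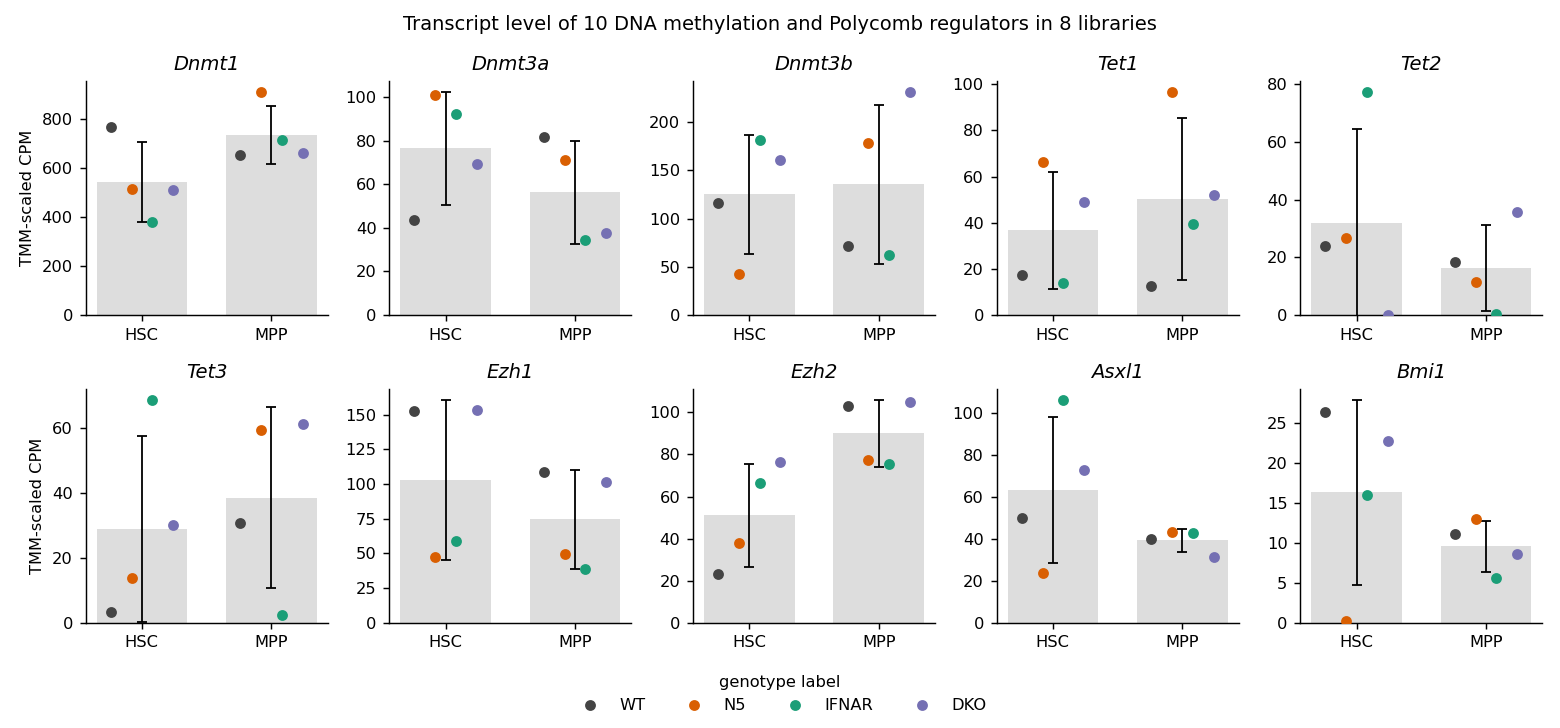
Level of each of the 10 genes in TMM-scaled CPM (vertical axis, linear, each panel with its own scale from 0) in the 4 HSC and the 4 MPP libraries, coloured by genotype label. Bars are means over the 4 libraries of a cell type and error bars are SDs; the 2 sets of points overlap in every panel, and Tet2 and Bmi1 each have an HSC library at or near 0.

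Among the methyltransferases, the maintenance enzyme Dnmt1 stood at 765, 515, 378 and 511 CPM in HSC and at 653, 909, 713 and 660 CPM in MPP, again by label from WT to DKO. The HSC library labelled WT lay above 3 of the 4 MPP libraries, while the other HSC libraries lay below all of them. The means were 542 ± 161 CPM in HSC and 734 ± 120 CPM in MPP libraries (SD, n = 4), and the fitted difference was -0.47 ± 0.22 (log2, SE; edgeR adjusted p = 0.572). Dnmt1 was lower in HSC in 3 of 4 pairs of libraries that share a genotype label.

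Dnmt3a, the de novo enzyme most studied in blood stem cells, stood at 43.4, 101.0, 92.2 and 69.2 CPM in HSC and at 81.7, 71.2, 34.4 and 37.7 CPM in MPP. Its level was higher in HSC in 3 of 4 label pairs and lower in the pair labelled WT. The means of 76.5 ± 25.8 and 56.2 ± 23.8 CPM (SD, n = 4) gave a fitted difference of 0.49 ± 0.47 (log2, SE; adjusted p = 0.848). Its paralog Dnmt3b, best known from the early embryo, stood at 116, 42.6, 182 and 160 CPM in HSC and at 71.3, 178, 62.2 and 231 CPM in MPP libraries. Low and high libraries of Dnmt3b occurred in both cell types, and HSC was the higher member of the pair for the labels WT and IFNAR only. Its means were 125 ± 61.5 and 136 ± 82.4 CPM (SD, n = 4), with a fitted difference of -0.06 ± 0.66 (log2, SE; adjusted p = 0.996).

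The log2 ratio of Dnmt3b to Dnmt3a CPM was compared between libraries. As it is not corrected for exon length (5106 and 16642 bases), its sign does not say which transcript was more abundant. The ratio of Ezh1 to Ezh2 below is not corrected for length either. For Dnmt3b to Dnmt3a, each set of 4 ratios follows the label order. The log2 ratio was 1.42, -1.25, 0.98 and 1.21 in HSC, and -0.20, 1.32, 0.86 and 2.61 in MPP. The library labelled N5 thus had the lowest ratio of the HSC group and the second highest of the MPP group. The means were 0.59 ± 1.24 in HSC and 1.15 ± 1.16 in MPP libraries (SD, n = 4), and the ratio was higher in HSC in 2 of 4 label pairs.

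The Tet genes varied more between libraries of a cell type than between cell types. Tet1 stood at 17.2, 66.5, 14.1 and 49.2 CPM in HSC and at 12.4, 96.5, 39.6 and 51.9 CPM in MPP. In both cell types its highest level was in the library labelled N5 and the next in the library labelled DKO. Between HSC and MPP the means were 36.7 ± 25.4 and 50.1 ± 35.1 CPM (SD, n = 4), and the fitted difference was -0.40 ± 0.50 (log2, SE; adjusted p = 0.896).

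Tet2, the Tet gene most often mutated in clonal human blood, stood at 23.8, 26.6 and 77.2 CPM in HSC for the labels WT, N5 and IFNAR and had 0 counts for the label DKO, where a count of 0 allows up to 0.0633 CPM (3 counts; counting error only). In the MPP libraries it stood at 18.2, 11.4, 0.275 and 35.8 CPM, and the 0.275 CPM of the library labelled IFNAR came from 10 counts. A different label was near 0 in each cell type, and the label that was near 0 in one was the highest in the other. The means were 31.9 ± 32.5 and 16.5 ± 14.9 CPM (SD, n = 4), and the fitted difference of 0.78 had an SE of 3.18 (log2; adjusted p = 0.981).

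Tet3 stood at 3.39, 13.7, 68.7 and 30.2 CPM in HSC and at 30.8, 59.4, 2.26 and 61.4 CPM in MPP. The library labelled IFNAR was the highest of the HSC group and the lowest of the MPP group. The means were 29.0 ± 28.7 and 38.5 ± 27.9 CPM (SD, n = 4), with a fitted difference of -1.05 ± 1.62 (log2, SE; adjusted p = 0.921).

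Of the Polycomb genes, Ezh2 stood at 23.2, 37.9, 66.4 and 76.4 CPM in HSC and at 103, 77.4, 75.5 and 105 CPM in MPP. It was lower in HSC in 4 of 4 label pairs, by -2.15, -1.03, -0.18 and -0.46 on the log2 scale, and the groups overlapped only where the HSC library labelled DKO lay above the MPP library labelled IFNAR. The mean was 51.0 ± 24.7 CPM in HSC and 90.1 ± 15.9 CPM in MPP libraries (SD, n = 4), a ratio of MPP to HSC means of 1.77, and the fitted difference was -0.94 ± 0.42 (log2, SE; edgeR adjusted p = 0.544). It was -0.56 without the HSC library labelled WT, and also without the MPP library of that label. With label as a block, leaving out either library removes the same label pair, so these fits are not separate checks. Ezh1 stood at 152, 47.7, 58.7 and 153 CPM in the HSC libraries and at 108, 49.2, 38.6 and 102 CPM in the MPP libraries. In both cell types the libraries labelled WT and DKO were high and those labelled N5 and IFNAR low. Between cell types the Ezh1 means were 103 ± 57.7 and 74.5 ± 35.7 CPM (SD, n = 4), with a fitted difference of 0.41 ± 0.23 (log2, SE; edgeR adjusted p = 0.662), and HSC was higher in 3 of 4 label pairs.

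The log2 ratio of Ezh1 to Ezh2 in each library was 2.71, 0.33, -0.18 and 1.005 in HSC and 0.08, -0.65, -0.97 and -0.04 in MPP libraries, in the order WT, N5, IFNAR and DKO. It was higher in HSC in 4 of 4 label pairs, although the lowest HSC ratio lay within the range of the MPP ratios. The means were 0.97 ± 1.26 in HSC and -0.40 ± 0.50 in MPP libraries (SD, n = 4), a difference of 1.36 on the log2 scale, with no test. Genes of S phase and mitosis moved with the cell type: the summed level of 25 of them was 4540 to 5457 CPM in HSC and 8230 to 9346 CPM in MPP libraries. Their part in the levels of Ezh2, Dnmt1 and the ratio was not tested.

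**Figure D2:**
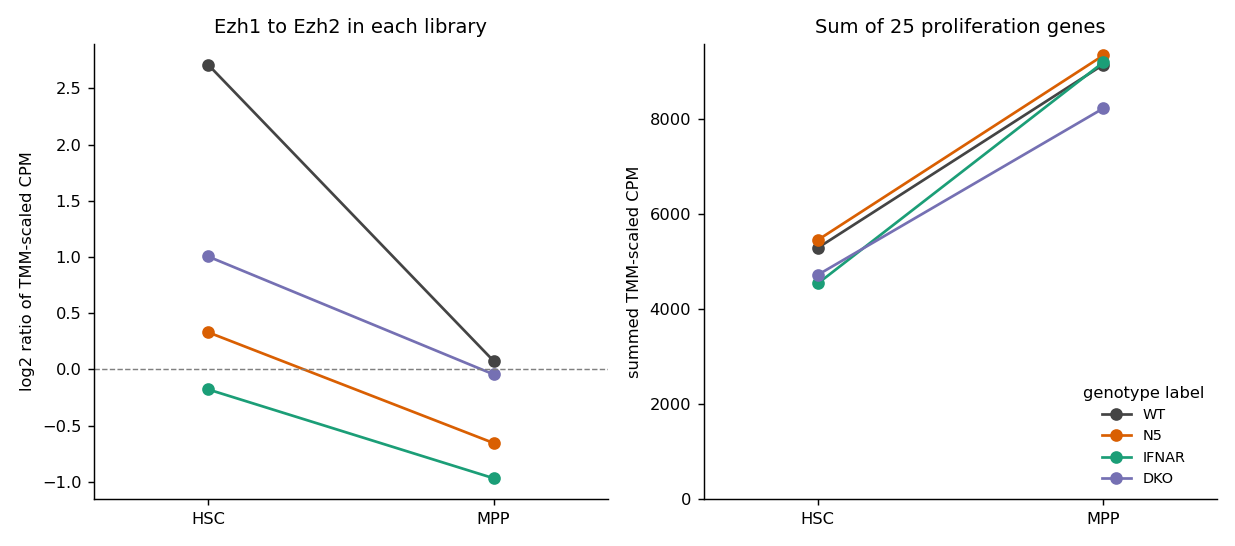
Left, log2 ratio of Ezh1 to Ezh2 in TMM-scaled CPM in each library; right, summed TMM-scaled CPM of 25 proliferation genes on a linear axis from 0. Lines join the HSC and MPP libraries that share a genotype label; each of the 4 lines on the left descends from HSC to MPP, and on the right all HSC libraries lie at 4540 to 5457 and all MPP libraries at 8230 to 9346.

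Asxl1, a cofactor of the deubiquitinase Bap1, stood at 49.8, 23.9, 106 and 72.9 CPM in the HSC libraries and at 39.7, 43.2, 42.6 and 31.3 CPM in the MPP libraries. The MPP libraries lay close together, and the HSC libraries lay on both sides of them. The means were 63.2 ± 35.0 and 39.2 ± 5.50 CPM (SD, n = 4), with a fitted difference of 0.52 ± 0.51 (log2, SE; adjusted p = 0.858). Bmi1 stood at 26.5, 0.196, 16.02 and 22.8 CPM in the HSC libraries and at 11.2, 13.0, 5.64 and 8.64 CPM in the MPP libraries. The HSC library labelled N5, with 6 counts, was the lowest of all 8, and the other HSC libraries lay above every MPP library. The means were 16.4 ± 11.6 and 9.61 ± 3.20 CPM (SD, n = 4), and the fitted difference was 0.41 ± 1.77 (log2, SE; adjusted p = 0.982).

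**Figure D3:**
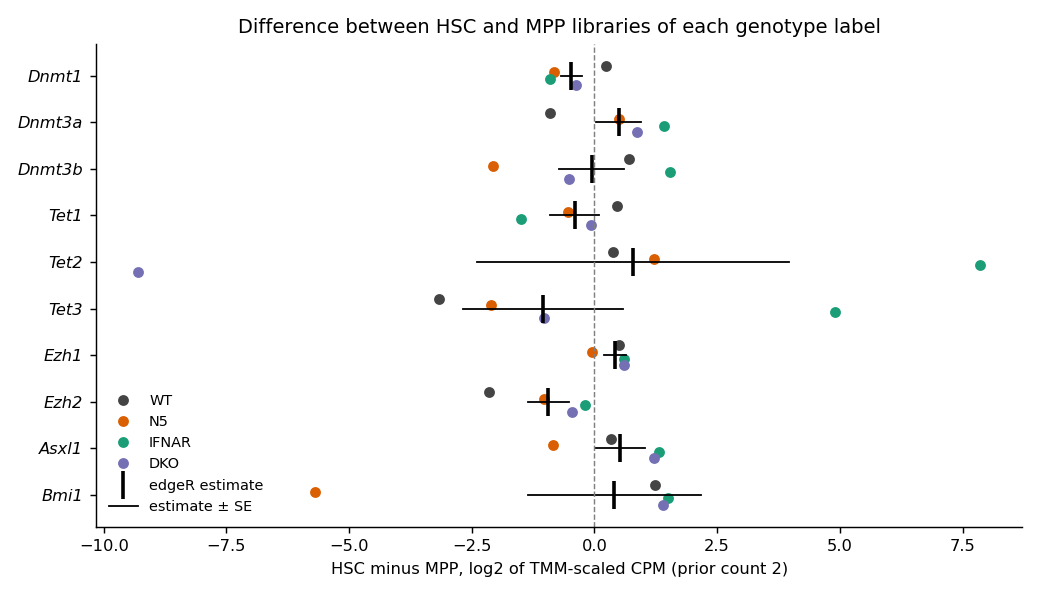
Difference in log2 TMM-scaled CPM (prior count 2) between the HSC and the MPP library of each genotype label for each of the 10 genes (horizontal axis; coloured points), with the edgeR estimate (upright bar) and its SE (horizontal line). All 4 points of Ezh2 lie below 0, and the points of Tet2 and Bmi1 reach furthest because a library stood at 0 or 10 counts (Tet2) or at 6 counts (Bmi1).

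Levels can be ordered between genes only per length, here as CPM per kilobase of exons joined over all transcripts of the GENCODE M21 annotation on GRCm38. Joined exons can be longer than any 1 transcript, which lowers the value per kilobase, and the counts were made on GRCm39. The joined exons of Dnmt3a, Tet1, Tet2 and Tet3 were the longest, at 15457 to 16870 bases. How far the order depends on these lengths was not tested. In HSC libraries the order was Dnmt1 at 73.5 ± 21.9, Dnmt3b at 24.5 ± 12.04, Ezh1 at 13.8 ± 7.76, Asxl1 at 8.50 ± 4.70, Ezh2 at 7.64 ± 3.70, Dnmt3a at 4.59 ± 1.55, Bmi1 at 4.12 ± 2.92, Tet1 at 2.38 ± 1.64, Tet2 at 1.89 ± 1.92 and Tet3 at 1.74 ± 1.72 CPM per kilobase (SD, n = 4). In MPP libraries the order was Dnmt1 at 99.5 ± 16.2, Dnmt3b at 26.6 ± 16.1, Ezh2 at 13.5 ± 2.38, Ezh1 at 10.01 ± 4.80, Asxl1 at 5.27 ± 0.739, Dnmt3a at 3.38 ± 1.43, Tet1 at 3.24 ± 2.27, Bmi1 at 2.42 ± 0.806, Tet3 at 2.30 ± 1.67 and Tet2 at 0.975 ± 0.883 CPM per kilobase (SD, n = 4). In each cell type Dnmt1 lay wholly above Dnmt3b, and the ranges of the other 8 pairs of neighbours overlapped.

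The genes varied widely among libraries of 1 cell type. The median SD of log2 CPM over the 4 libraries was 0.93 in HSC and 0.69 in MPP libraries for the 10 genes, against 0.69 and 0.51 for the 9278 tested genes with a mean of at least 10 CPM. Dnmt3b stood out on both sides: 93.5% of genes of similar level had a smaller SD among HSC libraries and 97.6% among MPP libraries. Tet2 was alike, with 94.1% and 92.6%. Ezh2 and Asxl1 had a larger SD than 67.4% and 75.8% of their peers in HSC, and than 17.8% and 12.1% in MPP. Single libraries near 0, as for Tet2 and Bmi1, occurred in other genes too. Of the genes at 10 CPM or more in the other 3 libraries of a cell type, the share below 1 CPM was 1.88% in the HSC library labelled N5, 2.04% in the HSC library labelled DKO and 1.43% in the MPP library labelled IFNAR, and 0.601% to 3.58% over all 8 libraries.

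The partners of these enzymes were described by lists of companion genes, by how many lay on each side. For every list, the background is that of all 12132 tested genes. Of these, 5359 were higher and 6773 lower in HSC, with a median difference of -0.10 on the log2 scale. Of 22 partners, readers and repair enzymes of DNA methylation, 19 were tested, 6 were higher and 13 lower in HSC by the fitted difference, 0 were called, and the median difference was -0.45 on the log2 scale. HSC and MPP libraries did not overlap for 4 of the 19, against 10.4% of all tested genes. Uhrf1, which brings Dnmt1 to newly replicated DNA, stood at 274 ± 38.6 CPM in HSC and 437 ± 79.3 CPM in MPP libraries (SD, n = 4), with all HSC libraries below all MPP libraries and a fitted difference of -0.67 ± 0.15 (log2, SE; edgeR adjusted p = 0.278). Hells, a chromatin remodeller needed for DNA methylation, stood at 67.3 ± 40.0 and 107 ± 30.8 CPM, the repair glycosylase Mbd4 at 18.2 ± 12.5 and 42.8 ± 20.2 CPM, and the zinc finger gene Cxxc5 at 86.5 ± 17.0 and 52.1 ± 9.96 CPM in HSC and MPP libraries (SD, n = 4). The groups did not overlap for Mbd4 and Cxxc5, but Mbd4 had an HSC library at 0 and a fitted difference of -1.89 ± 1.88 (log2, SE).

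Of 11 other PRC2 subunits, 8 were tested, 1 was higher and 7 were lower in HSC, 0 were called, and the median difference was -0.47 on the log2 scale. HSC and MPP libraries did not overlap for 2 of the 8, against 10.4% of all tested genes. These were the core subunits Eed, at 33.8 ± 4.33 and 55.7 ± 10.03 CPM in HSC and MPP libraries, and Rbbp4, at 280 ± 23.4 and 394 ± 23.2 CPM (SD, n = 4; adjusted p = 0.268), both lower in all HSC libraries. The core subunits Rbbp7, at 641 ± 68.9 and 772 ± 63.5 CPM, and Suz12, at 10.1 ± 6.87 and 12.2 ± 5.84 CPM, overlapped (SD, n = 4). Suz12 had an HSC library at 0 and was higher in HSC in 3 of 4 label pairs. The accessory subunits Mtf2, at 108 ± 53.1 and 139 ± 27.2 CPM, and Phf1, at 15.0 ± 9.51 and 17.8 ± 7.57 CPM, overlapped too. Of the 24 other PRC1 subunits all were tested, 12 lay on each side, 0 were called, and 2 did not overlap between HSC and MPP libraries, a share no higher than the 10.4% of all tested genes. These were the chromobox subunits Cbx2 and Cbx6. Cbx2 stood at 34.9 ± 24.2 CPM in HSC and 85.2 ± 14.8 CPM in MPP libraries (adjusted p = 0.511), and Cbx6 at 72.8 ± 13.5 and 33.1 ± 13.8 CPM (SD, n = 4; adjusted p = 0.388). Phc2 and Cbx8 had the largest fitted differences of that list, but each had an HSC library at 0 and overlapped with the MPP libraries.

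Of 11 other PR-DUB subunits, partners and H3K27 demethylases, 10 were tested, 3 were higher and 7 lower in HSC, and 0 were called. The PR-DUB partner Hcfc1 was the 1 gene of 10 without overlap, a share near the 10.4% of all tested genes, at 86.1 ± 20.3 CPM in HSC and 130 ± 6.39 CPM in MPP libraries (SD, n = 4; adjusted p = 0.431), while Asxl2, a paralog of Asxl1, stood at 33.6 ± 24.7 and 61.4 ± 32.6 CPM. Mbd5, a methyl-binding-domain protein of PR-DUB, stood at 18.3 ± 6.78 and 8.13 ± 3.004 CPM and the lysine demethylase Kdm1b at 21.8 ± 17.8 and 28.6 ± 6.81 CPM (SD, n = 4), and both overlapped. Of 13 classical Polycomb target genes 4 were tested and 5 had 0 counts in all 8 libraries, among them Cdkn2a, the cell cycle inhibitor known as a target of Bmi1. Hoxa10 stood at 32.3 ± 15.9 and 17.3 ± 1.74 CPM and Hoxa9 at 47.1 ± 20.5 and 61.2 ± 5.43 CPM in HSC and MPP libraries (SD, n = 4), and both overlapped. Of 8 genes used to follow stem cells that lack Dnmt3a or Tet2, 5 were higher and 3 lower in HSC and 0 were called. HSC and MPP libraries did not overlap for 2 of the 8, against 10.4% of all tested genes. The genes named here, picked by the size of the difference, are all among the 5 higher ones. Among them Runx1, a transcription factor of blood formation, stood at 106 ± 35.6 CPM in HSC and 58.5 ± 22.8 CPM in MPP libraries (SD, n = 4) and was higher in HSC in 4 of 4 label pairs. Gata3, at 57.9 ± 20.1 and 26.1 ± 20.9 CPM, was also higher in 4 of 4, but by only 0.025 on the log2 scale for the label WT. HSC and MPP libraries overlapped for Runx1 and Gata3 (edgeR adjusted p = 0.334 and 0.511). Vwf, which is on the list of HSC markers too, stood at 154 ± 97.1 and 1.25 ± 1.45 CPM without overlap (SD, n = 4; edgeR adjusted p = 0.320). All 25 proliferation genes were lower in HSC by the fitted difference, with a median of -0.92 on the log2 scale and no overlap for 16 of them, against 10.4% of all tested genes, although 0 were called after adjustment. The largest differences of this list were in Top2a, the topoisomerase of dividing cells, at 206 ± 51.9 and 672 ± 119 CPM, and the cyclin gene Ccna2, at 89.3 ± 34.0 and 264 ± 55.9 CPM (SD, n = 4). Tyms, of thymidylate synthesis, followed at 99.2 ± 42.5 and 221 ± 35.7 CPM, and Mcm4, of the replicative helicase, at 187 ± 99.2 and 370.2 ± 87.4 CPM (SD, n = 4).

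The libraries of a genotype label were then compared across cell types, by asking whether HSC and MPP libraries of that label differed from their own WT-labelled library in the same way. With 1 library a group there was no test, and the 3 labels share the WT-labelled library of their cell type. For the label N5, 2 of 10 genes were at least 2-fold away from WT in the same direction in both cell types, against 8.59% of all tested genes. These were Tet1, at log2 ratios of 1.95 in HSC and 2.95 in MPP, and Ezh1, at -1.67 and -1.14. For the label IFNAR it was 1 of 10, against 9.75%, namely Ezh1 at -1.37 and -1.49. For the label DKO it was 1 of 10, against 9.44%, namely Tet1 at 1.51 and 2.05. Tet3 lay just outside the 2-fold limit, at 2.00 and 0.95 for the label N5 and 3.13 and 0.99 for the label DKO.

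**Figure D4:**
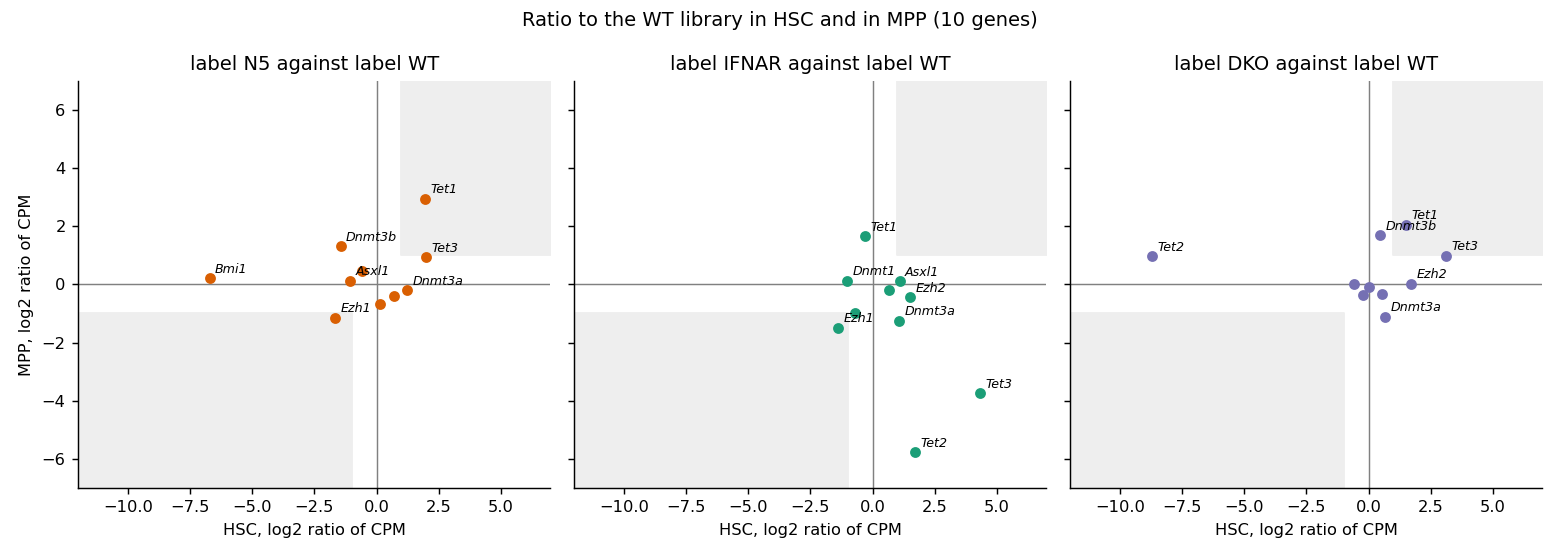
Log2 ratio of CPM of each of the 10 genes to the WT-labelled library, in HSC (horizontal axis) and in MPP (vertical axis), with 1 panel each for the labels N5, IFNAR and DKO. Shaded corners hold genes at least 2-fold away in the same direction in both cell types: Tet1 and Ezh1 for N5, Ezh1 for IFNAR and Tet1 for DKO.

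The sign of the difference from WT was shared between HSC and MPP by 3, 3 and 5 of 10 genes for the labels N5, IFNAR and DKO, against 49.2%, 49.7% and 49.1% of all tested genes. A difference of at least 2-fold from WT was seen for 7, 7 and 4 genes in HSC and for 3, 5 and 3 genes in MPP. Several large ratios pointed in opposite directions: Tet2 stood at 1.69 in HSC and -5.78 in MPP for the label IFNAR, Tet3 at 4.32 and -3.74 for the same label, Dnmt3b at -1.45 and 1.32 for the label N5, and Dnmt3a at 1.08 and -1.25 for the label IFNAR. The same label was highest in both cell types for 2 of 10 genes, Tet1 (N5) and Ezh2 (DKO), against 24.6% of all tested genes, and the same label was lowest for 0 of 10, against 24.6%.

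The study's design asks what loss of Nfat5 and of Ifnar1 does. By the labels, Nfat5 loss was fitted over 4 disjoint pairs of libraries matched on cell type and on the Ifnar1 label. Over all genes edgeR called 0%, with 338 genes at an unadjusted p under 0.05, limma-voom called 0 and DESeq2 called 166, or 1.37%. None of the 10 genes was called by edgeR. Tet1 came nearest: its level was 66.0 ± 21.7 CPM in the libraries labelled N5 or DKO and 20.8 ± 12.7 CPM in those labelled WT or IFNAR (SD, n = 4), and the groups did not overlap. It was higher in 4 of 4 pairs, by 1.95 and 1.80 in HSC and 2.95 and 0.39 in MPP on the log2 scale, and the fitted difference was 1.70 ± 0.54 (log2, SE; edgeR adjusted p = 1, with an unadjusted p under 0.05). DESeq2 gave Tet1 an adjusted p of 0.0436, and over all alternatives its adjusted p ran from 0.0436 to 1. Tet1 was the 1 gene of 10 whose groups did not overlap in this contrast, against 2.27% of all tested genes. Nfat5 itself was higher, not lower, in the library labelled for its loss in 3 of these 4 pairs. Tet1 was higher in those 3 pairs and, by 1.95, in the remaining one, N5 against WT in HSC, where Nfat5 was lower. Whether the level of Tet1 moved with that of Nfat5 was not tested.

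For the Ifnar1 labels, edgeR called 0% of all genes, with 398 at an unadjusted p under 0.05, while limma-voom called 1 and DESeq2 233, and none of the 10 regulators was called by any of them. The fitted differences of the 10 ran from -0.46 for Dnmt3a to 1.06 for Tet3 on the log2 scale, with SEs of 0.20 to 2.03.

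Ezh1 showed a pattern that neither single contrast holds. The libraries labelled WT and DKO stood at 102 to 153 CPM (129 ± 27.7, SD, n = 4) and those labelled N5 and IFNAR at 38.6 to 58.7 CPM (48.5 ± 8.26, SD, n = 4), in both cell types. Of the 10 genes 1 separated the libraries this way, against 2.02% of all tested genes. A term for the difference between the Nfat5 labels without and with the receptor, added after these values were seen, was 2.78 ± 0.46 for Ezh1 (log2, SE; edgeR adjusted p = 1, with an unadjusted p under 0.05), and edgeR called 0% of all genes for this term, with 404 at an unadjusted p under 0.05. The adjusted p of Ezh1 was 0.697 by limma-voom and 9.95e-08 by DESeq2, which called 393 genes, or 3.24%, and it ran from 9.95e-08 to 1 over all alternatives. The pairs behind it were -1.67 and 1.38 in HSC and -1.14 and 1.398 in MPP libraries, each the Nfat5 difference first with and then without the receptor by label. The choice of this term after seeing the values means that its p does not stand as independent evidence.

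The genes whose level was most like each regulator over the 8 libraries were found by Pearson's r of log2 CPM among 8886 genes. Because each is the highest of many, r describes these libraries alone and has no p, and the points share library, depth and cell type. Nearest to Ezh2 were Tacc3, a spindle gene, at r = 0.984, and Parp8 at r = 0.967. For Dnmt1 they were Eif4h at 0.969 and Ralgapa1 at 0.949, for Dnmt3a Gp1ba, which is on the megakaryocyte list, at 0.960 and Npepl1 at 0.957, and for Dnmt3b Inppl1 at 0.935 and AC168314.1 at 0.918. Tet1 was most like Zfp709 at 0.972 and Zdhhc7 at 0.945, Tet2 like Pacs2 at 0.977 and Zc2hc1a at 0.976, and Tet3 like Osm at 0.967 and Tk2 at 0.959. For Ezh1 the highest values were 0.935 for Tesk2 and 0.909 for Slc25a20, for Asxl1 0.985 for Eif4e3 and 0.957 for Hadh, and for Bmi1 0.987 for Traip and 0.985 for Vangl1.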

How the data were processed

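Poly-A RNA from each pool was extracted with a column kit for small samples and amplified by Smart-Seq2, a PCR method for full-length transcripts without molecule or strand tags, per the labels' protocols. Per the submitters' processing notes, STAR 2.7.8a, RSEM 1.3.0 and GRCm39 were used. The table deposited by the authors holds raw counts per gene, as whole numbers. How RSEM estimates were rounded, which annotation was used and how reads were filtered: not given in the sources used here. With no strand information, reads of genes that overlap on opposite strands cannot be separated with certainty. Reads that fit paralogs equally well cannot be placed with certainty either, with or without strand information.

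From these counts, TMM-scaled CPM, log2 values with a prior count of 2, and edgeR 4.0.16 quasi-likelihood tests (glmQLFit and glmQLFTest as installed; R 4.3.3, filterByExpr by cell type) were computed, with Benjamini-Hochberg adjustment over the 12132 tested genes at 0.05. These genes held 99.458% of counts. HSC and MPP were compared with genotype label as a block (3 residual degrees of freedom), and Nfat5 and Ifnar1 labels with cell type and both labels as terms (4 residual degrees of freedom). Alternatives used DESeq2 1.42.0, limma-voom (limma 3.58.1), other scalings and filters, and each library left out in turn. The code was tested on simulated data. A level of 10 CPM stood for 284 counts or more. Floors cover counting error only.

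The 10 genes and the companion lists were chosen with earlier results of these data known. The text gives the 10 genes in every library. From each companion list it gives up to 4 genes with the largest fitted difference among those at 10 CPM or more. The PRC2 subunits Suz12 and Rbbp7 are given in addition. For each of the 10 it gives the 2 genes of highest r among named genes at 10 CPM or more. The interaction term and the promoter motif were added after the values were seen. Gene coordinates on GRCm39 were not used here. The values of 1 companion gene that this rule names are not reported here.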

Additional observations from a re-analysis of the deposited data

Results flagged for a closer look

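Of the 20 sets of 4 libraries checked (10 genes in 2 cell types), 2 had a library set apart from the rest by a gap above Dixon's 95% critical value, and chance gives about 1 in 20. Tet2 had 0 CPM in the HSC library labelled DKO, while the other 3 HSC libraries stood at 23.8 to 77.2 CPM. Bmi1 stood at 0.196 CPM in the HSC library labelled N5, while the other 3 stood at 16.02 to 26.5 CPM.

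The Nfat5 label difference of Dnmt3b pointed in opposite directions in the cell types: the HSC pairs gave -1.45 and -0.18 and those of MPP 1.32 and 1.89, on the log2 scale. The mean of the HSC pairs minus that of the MPP pairs was -2.42, and this difference was not tested.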

How the results depend on the processing

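None of the 10 genes was called between HSC and MPP under any of the 15 alternatives, and the lowest adjusted p were 0.107 for Ezh2 and 0.142 for Dnmt1. Over all genes the count of 2 called moved to 23 with a filter of 10 CPM in 4 libraries, 107 with bias-adjusted quasi-likelihood, 156 with limma-voom, 207 without the genotype block and 1880 with DESeq2, and it was 0 without any 1 library. Of the 150 alternative values of the 10 genes, 138 kept their direction. These values are not independent: leaving out the HSC or the MPP library of a label removes the same label pair from the blocked fit. Leaving out 1 library turned the direction of Bmi1 (-0.20 to 1.38, log2), Dnmt3b (-0.62 to 0.58) and Tet2 (-0.81 to 2.34), and gave Ezh2 -1.21 to -0.56, Dnmt1 -0.70 to -0.32, Tet1 -0.70 to -0.046, Tet3 -2.11 to -0.053, Dnmt3a 0.16 to 0.93, Asxl1 0.23 to 0.96 and Ezh1 0.34 to 0.56. The smallest sizes of Ezh2 and Tet3 came without a library labelled WT.

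For the Nfat5 labels DESeq2 called 166 genes, 1 of them (Tet1) among the 10. The difference of Tet1 stayed positive under every alternative. Leaving out 1 library turned the direction of Dnmt1 (-0.093 to 0.26), Dnmt3a (-0.25 to 0.47), Dnmt3b (-0.11 to 1.03), Tet2 (-2.06 to 1.44), Ezh1 (-0.52 to 0.57), Ezh2 (-0.049 to 0.56) and Bmi1 (-1.13 to 0.47). Ezh1 was -0.0030 with RLE size factors and -0.0029 with DESeq2. With the receptor-intact labels alone, Ezh1 was -1.40, Dnmt1 -0.038 and Dnmt3b -0.056. For the Ifnar1 labels 1 gene was called by limma-voom, 1 by bias-adjusted quasi-likelihood and 233 by DESeq2, with 0 of the 10. The direction turned for Tet1 (-0.22 bias-adjusted, -0.41 limma-voom), Bmi1 (0.082 and 0.25), and Tet2 (-3.29 by limma-voom, -2.12 with the Nfat5-intact labels alone). Leaving out 1 library gave Ezh1 -0.61 to 0.49, Bmi1 -0.76 to 0.77, Tet2 -2.30 to 0.80, Tet3 -0.56 to 1.81 and Tet1 -0.44 to 0.25. The interaction term of Ezh1 ran from 2.51 to 3.11 without 1 library, and DESeq2 called 393 genes for it, 1 of the 10. At 1.5-fold in place of 2-fold, 3 genes agreed for the label N5, 2 for IFNAR and 2 for DKO, against 16.2%, 17.2% and 16.6% of all tested genes. The causes of these changes were not tested. Libraries were paired by genotype label in the HSC and MPP comparison; the labels give no replicate numbers to pair by. Each group holds 1 library.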
